A study of Mus musculus with 7 samples.

Results

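The highest doses of the METTL3 inhibitor STM2457, 20 µM and 30 µM, were compared with DMSO replicate 3 in chromatin-associated RNA (ChrRNA-seq) of C7H8 cells. These 3 of the 7 libraries were each read in the gene expression table and in the table of X-linked allelic ratios. Genes were kept when their mean over the 3 libraries was at least 1 RPM (read pairs on genes, scaled to a common library total), which left 13225 of the 22556 genes. All 386 X-linked genes with an allelic ratio were used. C7H8 is a single clone of female (XX) mouse embryonic stem (mES) cells from a Cast x 129S cross, in which the promoter of Xist on the Cast X chromosome was replaced by a TetOn promoter. In all libraries the cells were grown on mitomycin-inactivated mouse fibroblasts with serum and LIF, and were given vehicle (DMSO) or inhibitor for 6 h and then for a further 24 h together with doxycycline (Dox) at 1 µg/mL. Xist had thus been switched on in every library. The other 4 libraries, DMSO replicates 1 and 2 and 2 libraries at 10 µM with the same numbers, served for comparison, and the study's methods describe repeats of a clone as independent, with the conditions of a repeat taken from a common batch of cells. The labels of the high-dose libraries carry no replicate number, so they do not say whether these shared a batch with DMSO replicate 3. Each high dose is a single library, so all comparisons are descriptions with no test and no replicate check. Intervals (95%, exact) cover counting error only.

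METTL3 is the catalytic subunit of the complex that writes N6-methyladenosine (m6A) on nascent RNA, and STM2457 occupies its catalytic site. m6A is read by proteins such as YTHDC1 in the nucleus and is known to shorten the life of many transcripts, among them developmental and immediate early RNAs. Xist is the long noncoding RNA that coats the X chromosome from which it is made and silences its genes, so that the Xist-coated Cast X becomes the inactive X (Xi) while the 129S X stays active (Xa).

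The 3 libraries held 21472037 (DMSO replicate 3), 9300549 (20 µM) and 23367051 (30 µM) read pairs, so that 1 read pair was worth 0.107 RPM at 20 µM and at most 0.0466 RPM in the other two. Lars2, Cmss1, Gphn, Cdk8 and Camk1d took 1.16%, 8.92% and 0.700% of these read pairs, and all levels below are RPM over totals without these 5 genes. The mES cell label was met by Esrrb at 702, 598 and 782 RPM, Zfp42 at 658, 579 and 563 RPM, and Nanog at 77.0, 105 and 78.6 RPM, in the order DMSO replicate 3, 20 µM, 30 µM, which is kept throughout. Sox2, another defining gene, was listed at 0 in all 7 libraries. The 12 mES cell markers summed to 2010, 1977 and 2007 RPM, against 48.5, 54.3 and 53.3 RPM for the 16 feeder fibroblast markers. Of these 16, 6 reached the mean of 1 RPM. Lum was at 0, 0 and 0.043 RPM, but only 2, 2 and 0 of the 16 were at 0. Between DMSO replicates 3 and 1, 1724 genes lay more than 2-fold apart (13.0%), and between replicates 3 and 2, 1785 did (13.5%), whereas DMSO replicates 1 and 2 were that far apart at 20 genes (0.151%). What sets DMSO replicate 3 apart was not tested. In bulk RNA of this kind, a lower level cannot be split into fewer cells of a type and less RNA per cell.

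Few genes were shifted at both doses. A total of 31 genes were more than 2-fold higher than DMSO replicate 3 at 20 µM and at 30 µM (0.234% of those kept) and 44 were more than 2-fold lower at both (0.333%), on the scale of log2(RPM + 1), which understates the difference of low genes. At the 1.5-fold line these were 287 higher (2.17%) and 206 lower (1.56%). At 20 µM alone, 266 genes were more than 2-fold higher (2.01%) and 85 lower (0.643%), and at 30 µM alone 79 were higher (0.597%) and 75 lower (0.567%). At the 1.5-fold line the 20 µM library had 8.29% of genes higher and 4.33% lower, and the 30 µM library 5.31% and 2.78%. The high doses themselves were more than 2-fold apart at 224 genes (1.69%). The median over all kept genes was 0.01 at 20 µM and 0.04 at 30 µM. All 31 and all 44 had both counting intervals beyond a ratio of 1. The same read pairs had chosen these genes, so nothing is read from this. With totals as deposited 21 of the 31 and 43 of the 44 stayed past 2-fold, and with TMM factors 22 and 44. Just inside the 2-fold line were Casp8, at 7.12, 15.5 and 15.3 RPM, and Srgap3, at 129, 49.5 and 64.2 RPM. Just outside it were Slc5a11 at 55.9, 27.7 and 23.7 RPM and Phactr1 at 213, 108 and 97.8 RPM.

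**Figure D1:**
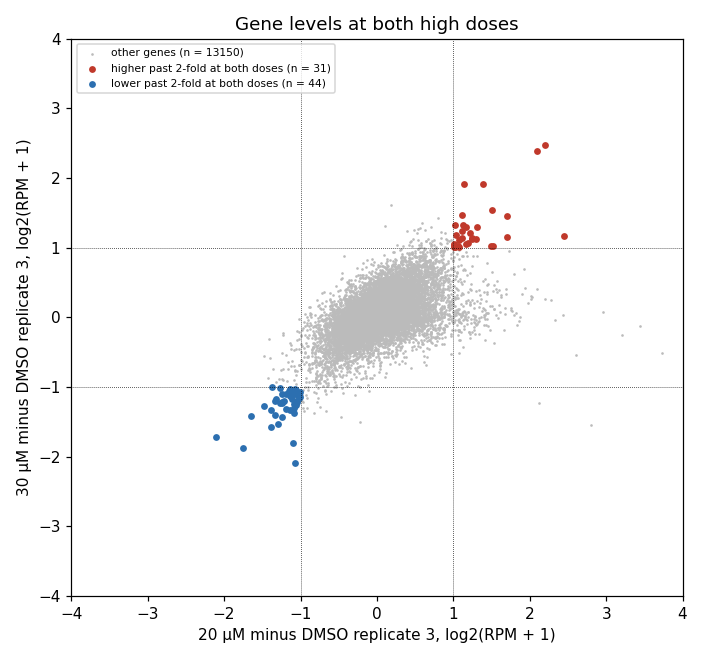
Each point is 1 of 13225 genes, by its difference from DMSO replicate 3 on the scale of log2(RPM + 1) at 20 µM (x axis) and 30 µM (y axis). Red marks the 31 genes and blue the 44 genes past 2-fold at both doses, dotted lines mark 2-fold, and 2 genes lie outside the axes. Both axes share DMSO replicate 3.

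The largest higher values at both doses were those of Gpr141 and Car10. Gpr141, an orphan G protein-coupled receptor (chr13:19749681-19824257, minus strand, mm10), had 1.79, 11.8 and 14.5 RPM. Its DMSO replicates 1 and 2 had 1.20 and 1.86 RPM, so all 3 DMSO libraries lay below 2 RPM and both high doses above 11 RPM. The level was 6.59 times DMSO replicate 3 at 20 µM (4.50 to 9.85) and 8.09 times at 30 µM (5.77 to 11.6). Car10, a carbonic anhydrase-related protein without enzyme activity (chr11:93099289-93601751, plus strand), had 5.75, 27.9 and 34.4 RPM and was at 2.97 and 4.43 RPM in DMSO replicates 1 and 2. It was 4.85 times DMSO replicate 3 at 20 µM (3.88 to 6.08) and 5.98 times at 30 µM (4.94 to 7.30). In both 10 µM libraries these genes also lay above their own DMSO library, by 0.73 and 0.33 on the log2 scale for Gpr141 and by 0.70 and 1.09 for Car10.

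The largest lower values were those of Pla2g7 and Egr1. Pla2g7 encodes the secreted phospholipase that breaks down platelet-activating factor (chr17:43568450-43612201, plus strand). Its levels were 8.72, 1.89 and 1.64 RPM, against 8.58 and 8.01 RPM in DMSO replicates 1 and 2. The 3 DMSO libraries thus lay within 1 RPM of each other, and the ratio to DMSO replicate 3 was 0.217 at 20 µM (0.121 to 0.361) and 0.188 at 30 µM (0.129 to 0.268). At 10 µM it had 4.42 and 4.40 RPM, between the DMSO and the high-dose levels. Egr1, a zinc finger factor made within minutes of growth factor signals, had 10.9, 1.77 and 2.63 RPM, a ratio of 0.163 at 20 µM (0.0896 to 0.274) and 0.241 at 30 µM (0.179 to 0.321). Its level moved widely between the other libraries, from 10.5 RPM in the first 10 µM library to 38.6 RPM in the second, and both high doses lay below all of them.

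The region 250 bases before the annotated start is printed for 4 genes that carry the shift, Gpr141 and Car10 on the higher side and Pla2g7 and Otx2 on the lower side (RefSeq, GRCm38.p6, read 5′ to 3′ towards the gene). Capitals mark matches on either strand to the TATA box (letters TATAAA), to the CCAAT box, to the GC box (letters GGGCGG) and to the E-box (letters CACGTG), none of which contains another.
Gpr141, chr13:19824258-19824507, minus strand: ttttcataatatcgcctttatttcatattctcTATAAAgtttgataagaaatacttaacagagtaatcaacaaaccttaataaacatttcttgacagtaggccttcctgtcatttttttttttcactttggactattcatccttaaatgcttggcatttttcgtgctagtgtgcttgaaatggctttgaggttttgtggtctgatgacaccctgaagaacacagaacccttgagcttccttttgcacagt
Car10, chr11:93099040-93099289, plus strand: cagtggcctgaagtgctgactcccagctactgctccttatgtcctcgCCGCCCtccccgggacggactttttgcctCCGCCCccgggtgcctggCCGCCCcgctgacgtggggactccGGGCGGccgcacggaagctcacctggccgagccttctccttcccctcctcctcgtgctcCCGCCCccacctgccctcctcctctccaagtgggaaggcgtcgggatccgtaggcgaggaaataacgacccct
Pla2g7, chr17:43568201-43568450, plus strand: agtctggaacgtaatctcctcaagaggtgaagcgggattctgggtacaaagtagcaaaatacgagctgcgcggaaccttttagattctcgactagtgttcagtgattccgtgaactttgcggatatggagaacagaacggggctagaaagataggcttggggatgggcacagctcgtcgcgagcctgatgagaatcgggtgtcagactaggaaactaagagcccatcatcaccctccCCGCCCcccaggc
Otx2, chr14:48667645-48667894, minus strand: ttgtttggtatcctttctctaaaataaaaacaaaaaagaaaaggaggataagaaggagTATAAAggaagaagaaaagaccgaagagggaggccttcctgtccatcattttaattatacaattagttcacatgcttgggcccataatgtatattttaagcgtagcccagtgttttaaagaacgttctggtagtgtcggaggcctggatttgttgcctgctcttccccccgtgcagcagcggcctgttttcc
The Gpr141 stretch held 2 CpG dinucleotides, Car10 21, Pla2g7 14 and Otx2 6. RefSeq starts were matched by symbol for 24 of the 31 higher genes, 33 of the 44 lower genes and 9975 of all kept genes, and the start nearest to the start of the gene in the deposited table was taken. The median CpG content of this stretch was 2.2 per 100 bases in the higher genes, 4.8 in the lower genes and 6.4 in all. GGGCGG was found in 37.5% of the higher, 51.5% of the lower and 60.4% of all stretches, CCAAT in 29.2%, 39.4% and 36.1%, TATAAA in 16.7%, 9.09% and 5.86%, and CACGTG in 0%, 3.03% and 8.41%. These are descriptions of letters in a window.

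**Figure D2:**
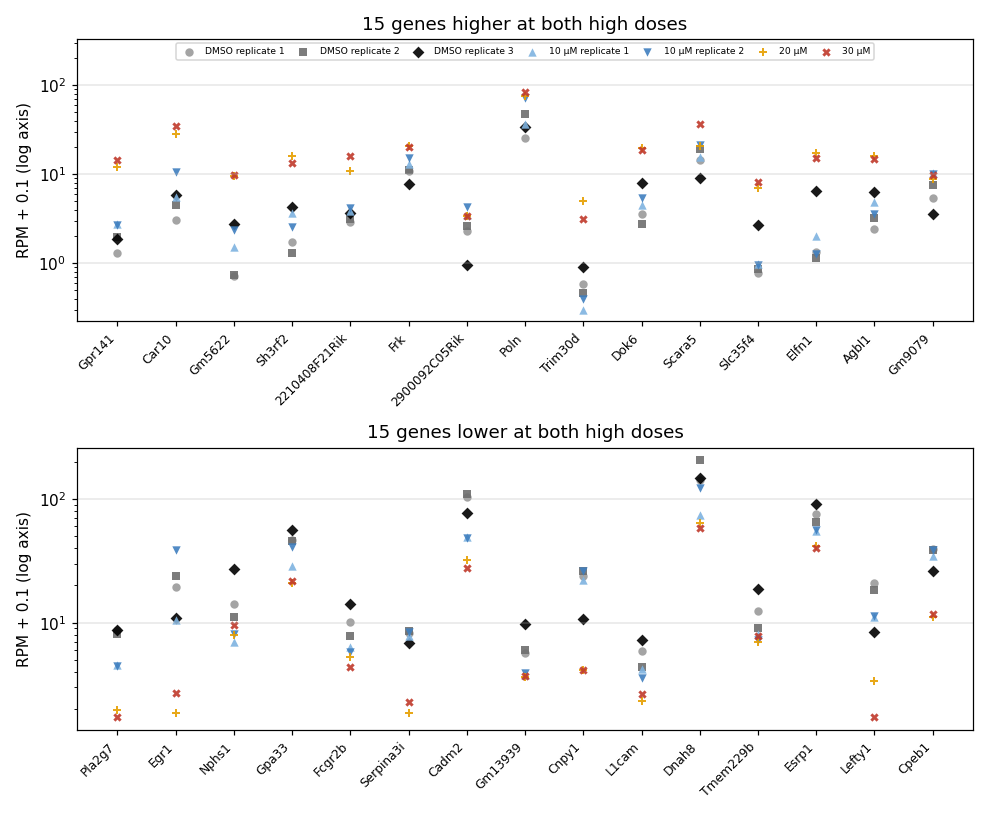
Levels in RPM + 0.1 (log axis) of the 15 genes with the largest higher values (top) and the 15 with the largest lower values (bottom) at both doses, with 1 symbol for each of the 7 libraries. The 20 µM and 30 µM symbols lie outside the range of the 3 DMSO libraries in each gene because the genes were picked that way. Pla2g7 shows the 10 µM libraries between DMSO and the high doses.

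The other 13 of the 15 largest higher genes had varied roles. Frk, a Src-family kinase of epithelia, had 7.68, 20.5 and 20.3 RPM. Dok6, an adaptor of receptor kinases, had 7.78, 19.8 and 18.4 RPM. Scara5, a ferritin receptor, had 8.90, 20.9 and 36.3 RPM, the last well above the 20 µM library. DMSO replicates 1 and 2 had 14.426 and 18.953 RPM of Scara5, so its 20 µM level was only slightly above replicate 2. The second 10 µM library, at 21.263 RPM of Scara5, lay above the 20 µM library. Slc35f4, a member of the solute carrier superfamily, had 2.59, 6.85 and 8.02 RPM. Elfn1, a synaptic adhesion protein, had 6.361, 16.999 and 15.041 RPM, although its level was only 1.25 and 1.04 RPM in DMSO replicates 1 and 2. Agbl1, a glutamate-chain carboxypeptidase of tubulin, behaved alike, at 6.17, 16.1 and 14.6 RPM against 2.35 and 3.11 RPM in the other DMSO libraries. Poln, a translesion DNA polymerase, had 33.4, 76.3 and 83.3 RPM, with 25.1 and 48.0 RPM in DMSO replicates 1 and 2. The gene of Poln overlaps Haus3 on the same strand, so reads of the pair could be lost or shared. Sh3rf2, an E3 ligase with SH3 domains, had 4.15, 15.8 and 13.1 RPM. Trim30d, at 0.801, 4.84 and 3.02 RPM, belongs to a multigene family in which reads may be split, and rests on 17 read pairs in DMSO replicate 3. The remaining 4 of the 15, Gm5622, Gm9079, 2210408F21Rik and 2900092C05Rik, are known here by their gene model names only, at 0.848 to 3.53 RPM in DMSO replicate 3 and 3.28 to 16.0 RPM at the high doses. For Gm9079, DMSO replicates 1 and 2 had 5.32 and 7.44 RPM, and the 10 µM libraries, at 10.2 and 9.91 RPM, lay above both high doses. For 2900092C05Rik, with 18 read pairs in DMSO replicate 3, the 10 µM libraries also lay above both high doses, at 3.36 and 4.18 RPM. None of the 31 higher genes was X-linked, but only 482 of all 13225 kept genes were, so nothing is read from this.

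Some of the lower genes are developmental or RNA regulators, but the share of such genes among all kept genes was not counted. Otx2, a homeobox factor of the primed epiblast and forebrain, had 19.7, 8.97 and 9.05 RPM, and 19.7 and 20.2 RPM in DMSO replicates 1 and 2. Its DMSO mean was 19.9 ± 0.314 RPM (SD, n = 3), and its ratio to DMSO replicate 3 was 0.456 at 20 µM (0.352 to 0.583) and 0.460 at 30 µM (0.387 to 0.544). Lefty1, a secreted Nodal antagonist, had 8.25, 3.31 and 1.64 RPM, with 20.9 and 18.2 RPM in DMSO replicates 1 and 2. Esrp1, an epithelial splicing regulator, had 91.3, 41.8 and 40.0 RPM. Cpeb1, which controls cytoplasmic polyadenylation, had 26.3, 11.0 and 11.8 RPM, and the DMSO replicates 1 and 2 and both 10 µM libraries lay between 34.5 and 39.4 RPM. Cnpy1, linked to FGF receptor signalling, had 10.6, 4.01 and 4.05 RPM, with 21.9 to 26.0 RPM in the other 4 libraries, so that DMSO replicate 3 was itself below these.

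Among the other lower genes, some encode cell surface proteins, though Dnah8 and Serpina3i do not, and this share was not counted either. Cadm2, a neural adhesion molecule that spans 965489 bases, had 76.3, 31.8 and 27.7 RPM, and its 10 µM libraries had 49.2 and 48.0 RPM against 103 and 110 RPM in their DMSO libraries. Nphs1, the nephrin of the kidney slit diaphragm, had 26.9, 7.91 and 9.48 RPM, but 14.2 and 11.0 RPM in DMSO replicates 1 and 2 and 6.92 and 7.99 RPM at 10 µM. Its mean log2 difference of both doses was -1.53, and -0.49 against DMSO replicates 1 and 2. Gpa33, an intestinal surface antigen, had 56.5, 21.0 and 21.8 RPM. Fcgr2b, the inhibitory receptor for IgG, had 14.2, 5.19 and 4.27 RPM. L1cam, an X-linked neural adhesion gene, had 7.16, 2.24 and 2.54 RPM, and was 1 of 4 X-linked genes among the 44. Of all 13225 kept genes, 482 were X-linked. Dnah8, an axonemal dynein heavy chain expressed in testis, had 147, 63.9 and 58.5 RPM. Its 10 µM libraries had 74.2 and 122 RPM against 141 and 204 RPM in DMSO. The other 3 of the 15, Serpina3i (a serine protease inhibitor in a multigene cluster), Gm13939 and Tmem229b, had 6.74, 9.71 and 18.6 RPM in DMSO replicate 3 and 1.77 to 7.71 RPM at the high doses. DMSO replicates 1 and 2 had 8.15 and 8.44 RPM of Serpina3i, 5.56 and 5.97 RPM of Gm13939, and 12.3 and 9.05 RPM of Tmem229b.

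The other 29 of the 44 lower genes were less far apart or had high-dose levels within the DMSO range. Lef1, the nuclear partner of β-catenin in Wnt signalling, had 151, 67.9 and 68.3 RPM. Its DMSO replicates 1 and 2 had only 52.8 and 53.1 RPM, so that the high-dose levels were above them, and the direction at the high doses holds against DMSO replicate 3 alone. Its 10 µM libraries, at 38.8 and 34.6 RPM, were lower than their own DMSO libraries. Morc1, a germline silencer of transposons, had 973, 479 and 438 RPM, the highest levels of any gene among the 44. Rarb, a retinoic acid receptor, had 21.1, 9.44 and 7.93 RPM, with 29.9 and 42.0 RPM in DMSO replicates 1 and 2. Bcl11a, a zinc finger repressor, had 80.3, 38.2 and 37.1 RPM but only 10.7 and 5.58 RPM in DMSO replicates 1 and 2, so that its direction also holds against DMSO replicate 3 alone. Wnt3, a ligand needed for the primitive streak, had 2.36, 0.590 and 0.646 RPM and rested on 5 read pairs at 20 µM.

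The 10 µM libraries were paired with DMSO replicates 1 and 2, which the comparison above did not use. Of the 31 higher genes, 27 were also higher than DMSO in both pairs (87.1%, against 35.8% of all kept genes). Of the 44 lower genes, 39 were also lower in both (88.6%, against 27.3%). The medians of the higher genes were 0.39 and 0.40 in the 10 µM pairs, and 1.17 and 1.16 at 20 µM and 30 µM, on the log2 scale. Those of the lower genes were -0.43 and -0.29 at 10 µM, and -1.14 and -1.20 at the high doses. At the 1.5-fold line, 204 of 287 (71.1%) and 166 of 206 (80.6%) went the same way in both pairs. Past 2-fold, each 10 µM pair held 12 genes in either direction (0.0907%). Of the 31, 28 were above each of the 3 DMSO libraries at both doses (17.1% of all genes were), and of the 44, 30 were below each (18.4%), but distance from DMSO replicate 3 had chosen these genes, so nothing is read from these shares.

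**Figure D3:**
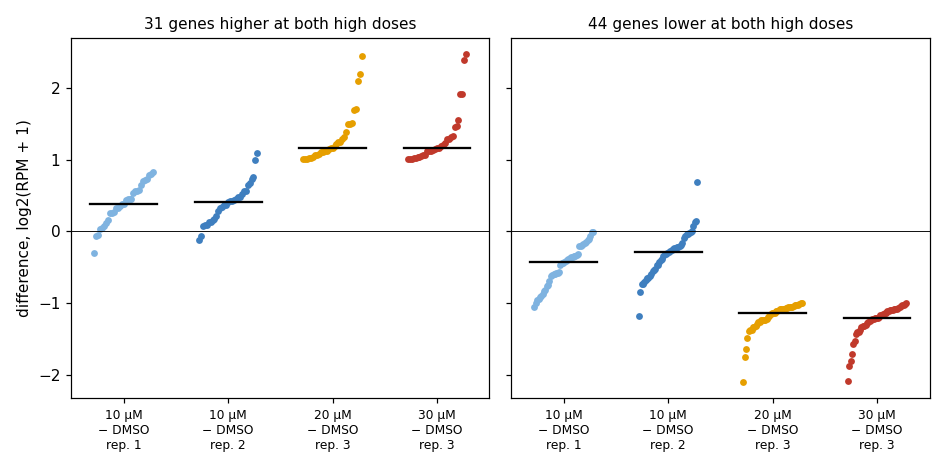
Differences on the scale of log2(RPM + 1) for the 31 higher (left) and 44 lower (right) genes, each sorted within a column. The 2 blue columns are the 10 µM libraries minus their own DMSO libraries, which did not choose the genes, and the orange and red columns are 20 µM and 30 µM minus DMSO replicate 3, which did. Black bars are medians, at 0.39 and 0.40 in the blue columns on the left and -0.43 and -0.29 on the right.

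The median span from start to end was 97956 bases in the 31 higher genes and 50168 bases in the 44 lower genes, against 26813 bases in all kept genes. With genes sorted by span into 5 classes of 2645, 109 of the longest class were higher and 82 lower past 1.5-fold at both doses, against 35 and 28 of the shortest class. The number of GGACT motifs, a sequence that the m6A writer prefers, was close to the same in the transcripts of higher, lower and all genes, with medians of 1.01, 0.97 and 1.03 per 1000 bases. The shortest class stood apart by dose in place of direction, with a median of 0.12 at 20 µM and -0.01 at 30 µM. Ribosomal protein genes (79 kept) had medians of 0.36 and -0.12, and histone genes (36) 0.73 and -0.25, so that these medians were above 0 at 20 µM and below 0 at 30 µM. The 20 µM library also was the shallowest and had the 5 removed genes at 8.92%. The part of library make-up in these values was not tested.

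None of the 9 members of the writer complex and none of the 13 readers and erasers passed 1.5-fold at both doses. Of all kept genes only 2.17% were higher and 1.56% lower by that much, so lists this small, here and below, could hold none at that share. Mettl3 had 30.6, 24.8 and 27.5 RPM, Mettl14 32.6, 34.2 and 31.1 RPM, and Wtap, the scaffold of the complex, 186, 166 and 171 RPM. Ythdc1, the nuclear reader, had 300.4, 356 and 289 RPM, a difference of 0.24 and -0.05 on the log2 scale. Zcchc8, a subunit of the NEXT complex that hands nuclear RNA to the exosome, had 101, 106 and 111 RPM, and none of the 23 nuclear decay genes passed 1.5-fold at both. Spen, which binds Xist and recruits the silencing machinery, had 193, 189 and 186 RPM, and none of 24 silencing and Polycomb factors passed either.

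Among lineage genes, 10 of 19 formative and priming genes were lower by any amount at both doses (52.6%, against 30.4% of all genes) and 5 were higher (26.3%, against 37.5%). Lef1, Otx2 and Lefty1 were the 3 lower past 1.5-fold and Eomes, a T-box factor of mesendoderm, the 1 higher, at 2.45, 5.78 and 4.65 RPM. DMSO replicates 1 and 2 had 6.09 and 5.26 RPM of Eomes, so that against their mean Eomes was slightly higher at 20 µM and lower at 30 µM. Lefty2, next to Lefty1 in function, had 49.7, 42.5 and 16.9 RPM, and T, the brachyury factor, 2.78, 1.54 and 1.16 RPM. The median of the 19 was -0.24 at 20 µM and -0.14 at 30 µM against DMSO replicate 3, and 0.30 and 0.30 against the mean of DMSO replicates 1 and 2.

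Of 22 naive pluripotency genes, 12 were lower at both doses (54.5%, against 30.4% of all genes) and 5 higher (22.7%, against 37.5%), with medians of -0.16 and -0.31. In the 10 µM pairs the medians were -0.20 and 0.016. Nr5a2, a nuclear receptor that sustains Oct4, was the only member past 1.5-fold, at 499, 286 and 282 RPM, and 356 and 379 RPM in DMSO replicates 1 and 2. Socs3, which damps LIF signalling, had 12.5, 8.50 and 8.06 RPM, and Prdm14, a repressor of the primed state, 20.3, 13.9 and 15.0 RPM. Pou5f1 had 34.0, 48.3 and 35.1 RPM. Both high doses lay below all 3 DMSO libraries for 7 of the 22 (18.4% of all genes were), and above them for 0. Fgf4, 1 of these 7, had 36.4, 35.2 and 34.9 RPM against 92.8 and 101 RPM in DMSO replicates 1 and 2, so that the DMSO libraries were farther apart than the doses.

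Genes of sterol synthesis were higher as a group against DMSO replicate 3, with 21 of 25 higher at both doses (84.0%, against 37.5%) and 1 lower. The medians were 0.36 and 0.60. Cyp51, the lanosterol demethylase, had 66.8, 128 and 115 RPM, and Sc5d, the lathosterol desaturase, 13.7, 24.2 and 28.3 RPM, and only these 2 passed 1.5-fold at both. DMSO replicates 1 and 2 had 114 and 120 RPM of Cyp51, and the medians of the list in these libraries were 0.76 and 0.73 above DMSO replicate 3. Against the mean of DMSO replicates 1 and 2 the direction turned, with medians of -0.34 at 20 µM and -0.10 at 30 µM, and at 10 µM its medians were -0.16 and -0.05 against DMSO.

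NRF2 targets, which defend cells against oxidants, were similar, with 15 of 19 higher at both doses (78.9%) and medians of 0.32 and 0.27, which turned to -0.0582 and -0.21 against the mean of DMSO replicates 1 and 2. Me1, the malic enzyme, had 47.1, 78.6 and 81.2 RPM (82.2 and 83.6 RPM in DMSO replicates 1 and 2), and Fth1, the ferritin heavy chain, 7.49, 28.6 and 12.0 RPM (12.7 and 20.3 RPM in DMSO replicates 1 and 2, so that it was below both at 30 µM). Pgd, of the pentose phosphate pathway, had 27.6, 52.2 and 41.6 RPM. Pgd was 1 of 4 of the 19 above all 3 DMSO libraries at both doses (17.1% of all genes were). DMSO replicates 1 and 2 had list medians 0.52 and 0.21 above DMSO replicate 3. The 24 genes of hypoxia and glycolysis had medians 1.27 and 1.42 higher in DMSO replicates 1 and 2 than in replicate 3, and 0.08 and 0.18 at the high doses.

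**Figure D4:**
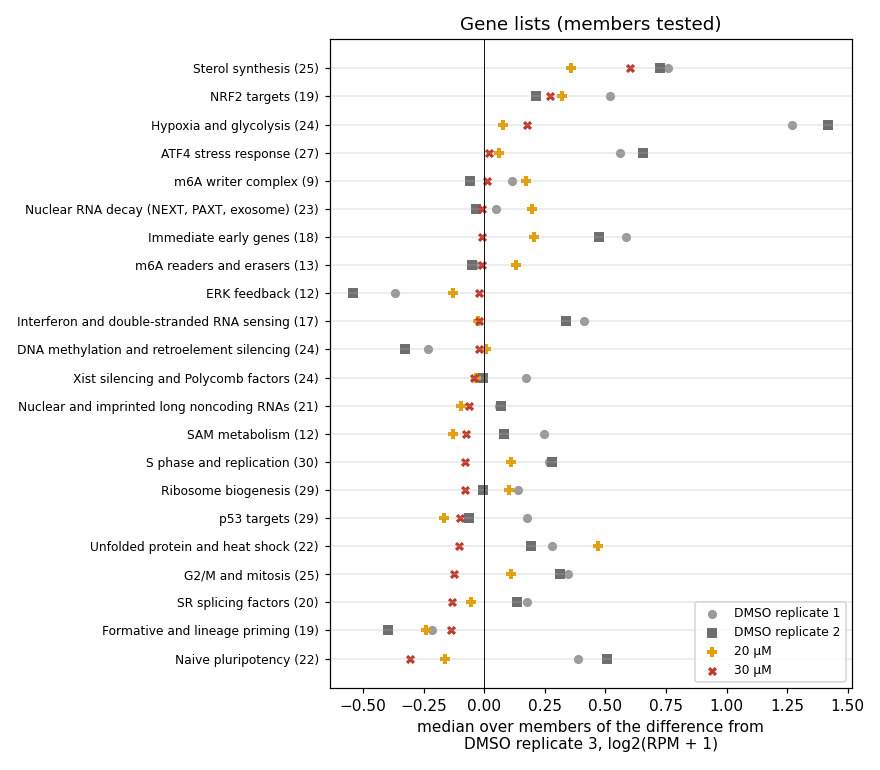
Median difference from DMSO replicate 3 on the scale of log2(RPM + 1) for 22 gene lists, with the number of members kept in brackets. Grey symbols are DMSO replicates 1 and 2, the orange plus 20 µM and the red cross 30 µM. For sterol synthesis the high doses, at 0.36 and 0.60, lie between DMSO replicate 3 (at 0) and the other DMSO libraries.

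Other lists held few shifted members, beside 2.17% of all genes higher and 1.56% lower past 1.5-fold at both doses, and 37.5% higher and 30.4% lower by any amount. Of 18 immediate early genes, Egr1 and Junb were lower past 1.5-fold at both doses, whereas the medians were 0.20 and -0.01. Junb was at 2.92, 1.30 and 0.948 RPM, with 7.05 and 5.94 RPM in DMSO replicates 1 and 2. Of 29 p53 targets, 14 were lower at both doses (48.3%, against 30.4%) and 4 higher (13.8%, against 37.5%). Cdkn1a, the cell cycle inhibitor p21, had 10.5, 5.55 and 6.38 RPM, and Trp73 10.8, 5.78 and 5.39 RPM, and these were the 2 past 1.5-fold. Of 12 genes of ERK feedback, Dusp4 was higher past 1.5-fold, at 5.51, 9.21 and 8.79 RPM, although DMSO replicates 1 and 2 had 10.9 and 10.01 RPM. Of 17 genes of interferon and double-stranded RNA sensing, B2m was higher at 3.30, 13.2 and 7.33 RPM and Ddx58, the RIG-I sensor, lower at 43.1, 28.1 and 25.8 RPM, although DMSO replicates 1 and 2 had 26.0 and 20.6 RPM. Of 20 SR splicing factors 12 were lower by any amount (60.0%, against 30.4%), none past 1.5-fold. Of 10 snoRNA host genes (Snhg) 7 were lower by any amount (70.0%, against 30.4%), with medians of -0.24 and -0.25, whereas in the 10 µM pairs the medians were 0.31 and 0.27. No member of the lists for ATF4, unfolded protein and heat shock, ribosome biogenesis, SAM metabolism, replication, mitosis, DNA methylation and retroelement silencing, or nuclear and imprinted noncoding RNA passed 1.5-fold at both doses. Of the markers of primitive endoderm, Dab2, Col4a1 and Col4a2 were higher past 1.5-fold while Lama1 had 367, 260 and 249 RPM. DMSO replicates 1 and 2 had 50.5 and 48.4 RPM of Col4a1 against 29.4, 46.3 and 50.7 RPM, so that it was lower than both at 20 µM and within 3 RPM of both at 30 µM. The defining factors Gata4 and Gata6 had 6.50, 5.08 and 7.46 RPM and 1.56, 0.826 and 2.37 RPM, and Foxa2 was at 0 at 20 µM.

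Xist (chrX:103460372-103483233, minus strand) had 3246, 4568 and 5208 RPM, 1.41 times DMSO replicate 3 at 20 µM (1.39 to 1.42) and 1.60 times at 30 µM (1.59 to 1.62). DMSO replicates 1 and 2 had 1544 and 1694 RPM, so DMSO replicate 3 itself was nearer, on the log2 scale, to the high doses than to the other DMSO libraries. A second silencing RNA, the imprinted Kcnq1ot1, followed the same order with 2573, 3433 and 3578 RPM, against 1395 and 1404 RPM in DMSO replicates 1 and 2. Malat1, a nuclear RNA of speckles, had 10293, 11949 and 13093 RPM. Neat1, the scaffold of paraspeckles, was apart at 30 µM only, with 187, 171 and 332 RPM, and had 341 RPM in DMSO replicate 1.

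The allelic ratio, Xi/(Xi + Xa), was lower at both doses for 278 of the 386 X-linked genes (72.0%) and higher at both for 17 (4.4%), with 91 opposite or equal. Reads behind a single ratio are unknown, so single genes carry no interval. The median difference from DMSO replicate 3 was -0.048 at 20 µM and -0.056 at 30 µM. A total of 28 genes were lower by at least 0.1 at both doses (7.25%) and none higher by as much, and 235 genes (60.9%) lay below all 3 DMSO libraries at both. The number of genes with a ratio under 0.1 went from 22 in DMSO replicate 3 to 66 at each high dose. In the 10 µM pairs 199 genes were lower in both (51.6%).

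The 8 largest lower ratios common to both doses were in genes with a mean of 2.09 to 28.8 RPM. The predicted gene 2010204K13Rik went from 0.534 to 0.267 and 0.200, and 3010001F23Rik from 0.211 to 0 and 0. Hsd17b10, a mitochondrial dehydrogenase, had 0.360, 0.154 and 0.0312, Gm10474 0.241, 0 and 0.069, and Hmgb3, a chromatin protein, 0.308, 0.143 and 0.167. Nr0b1 (Dax1), an orphan receptor of the naive network, had 0.389, 0.229 and 0.142, and its 10 µM libraries had 0.228 and 0.168 against 0.326 and 0.271 in DMSO. Haus7, of the augmin complex that nucleates spindle microtubules, had 0.419, 0.230 and 0.270 at a mean of 28.8 RPM, the highest of these 8. Uprt had 0.204, 0.0417 and 0.0635, but DMSO replicates 1 and 2 had 0.0392 and 0, so its lower ratio holds against DMSO replicate 3 alone. The 5 genes with the largest higher ratios at both doses were less far from DMSO replicate 3 at the nearer dose. Syap1 had 0.322, 0.390 and 0.363, Yipf6 0.311, 0.353 and 0.355, Dgkk 0.210, 0.256 and 0.247, Mir669m-2 0.0893, 0.250 and 0.118, and Ndufb11 0.475, 0.500 and 0.535. Apart from Syap1 and Mir669m-2 at 20 µM, these values lay within the range of the 3 DMSO libraries.

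Genes known to escape X inactivation were less far apart. The 14 escape genes had median differences of -0.0057 and -0.0212, against -0.0510 and -0.0574 in the other 372 genes. Kdm6a, a histone demethylase, had 0.443, 0.432 and 0.427, Eif2s3x, a translation factor, 0.396, 0.396 and 0.378, and Mid1 0.947, 0.959 and 0.953. Kdm5c, also a demethylase, had 0.338, 0.272 and 0.264. Both high doses lay below all 3 DMSO libraries in 5 of the 14 escape genes, and in 230 of the other 372. These 5 were Kdm5c, Ddx3x, Shroom4, Flna and Nkap, with Flna at 0.220, 0.180 and 0.152. Ddx3x, an RNA helicase, had 0.406, 0.362 and 0.354. Ftx, a noncoding gene near Xist, had 0.165, 0.200 and 0.155.

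Of genes within 10 Mb of Xist, 74.0% were lower at both doses (73 genes), 90.9% of those at 10 to 25 Mb (11 genes), 78.6% at 25 to 50 Mb (145 genes) and 63.7% farther away (157 genes). The median differences were -0.038 and -0.051 in the nearest class, -0.063 and -0.062 at 25 to 50 Mb, and -0.038 and -0.054 in the farthest. With genes sorted by expression into 4 classes, 82.5% of the highest class and 63.9% of the lowest were lower at both. The size of the difference ran the other way, with medians of -0.041 and -0.053 in the highest class and -0.073 and -0.075 in the lowest, and 1 and 17 genes lower by at least 0.1. By the mean ratio of DMSO replicates 1 and 2, 78.3% of genes under 0.2 and 63.7% of those at 0.4 or more were lower at both. Levels assigned to each allele were obtained by multiplying RPM by the ratio (Xi) or by its complement (Xa). The median Xi level was lower by 0.29 and 0.40 on the log2 scale, with 82 genes lower and 1 higher past 1.5-fold at both doses, whereas the median Xa level differed by 0.11 and 0.03, with 4 lower and 15 higher. The Xa medians had no stable sign, at -0.0031 for 20 µM with totals as deposited and -0.0114 for 30 µM with TMM factors.

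**Figure D5:**
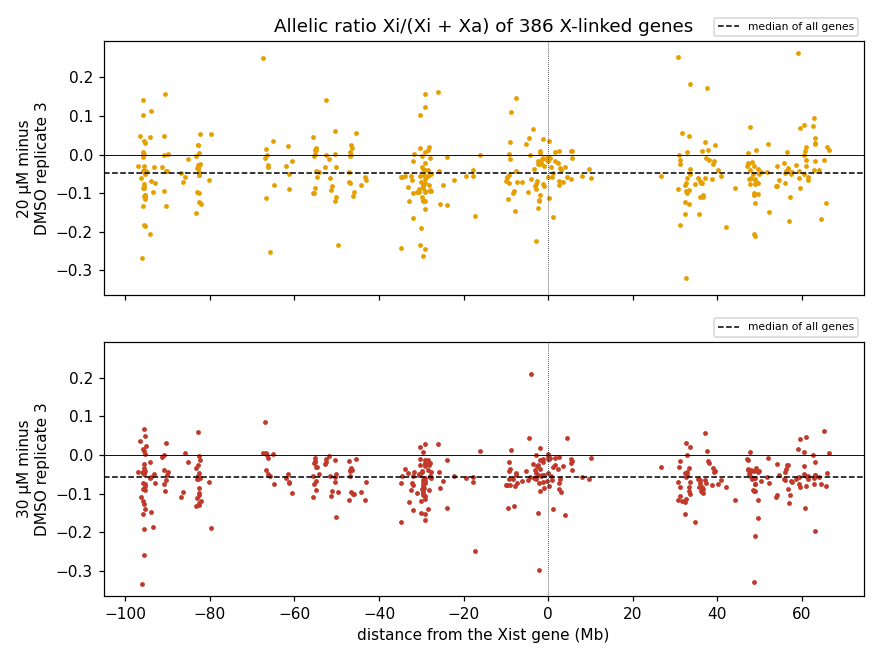
Difference of the allelic ratio Xi/(Xi + Xa) from DMSO replicate 3 at 20 µM (top) and 30 µM (bottom) for 386 X-linked genes, by distance from the Xist gene in Mb. The dashed lines are the medians, -0.048 and -0.056, and points lie mostly below 0 over the length of the chromosome.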

How the data were processed

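ChrRNA-seq of 7 C7H8 libraries was used. Per the study's methods, reads of ribosomal RNA were first taken away (Bowtie2). STAR then placed the remainder on an N-masked mm10, SNPsplit parted unique alignments by parent, and featureCounts counted fragments by strand over whole transcripts, introns included. The deposited expression values are RPM, scaled with edgeR, and the deposited allelic ratios are fractions, Xi/(Xi + Xa), for genes that passed the authors' minimum of SNP reads. Read counts behind the ratios were not used here.

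Every RPM above 0 was a whole multiple of 1 read pair (100% within 1e-04), so counts were recovered from the deposited values and give 95% exact (Clopper-Pearson) intervals for folds. No count model was run, since 1 library a dose gives no residual spread. Lars2, Cmss1, Gphn, Cdk8 and Camk1d were taken out of totals, genes were kept when DMSO replicate 3, 20 µM and 30 µM averaged 1 RPM or more, and folds were taken on log2(RPM + 1). Allele levels used a pseudocount of 0.1. The text names the 15 largest shifts in each direction outside the range of all 3 DMSO libraries with at least 50 read pairs, up to 4 members per list past 1.5-fold, the X-linked genes with the 8 largest lower and 5 largest higher ratios, escape genes, markers and genes of the m6A and Xist pathways. Other genes named were chosen after their values were seen. Members and lists were chosen with earlier results of these data known. Simulated counts for 13080 genes held counting error only, with no spread between libraries. There, 91 of 94 genes changed at least 3-fold passed 2-fold, and 0 of 12892 unchanged genes did. The real DMSO replicates 3 and 1 lay that far apart at 13.0% of genes, so the simulation gives no rate of false calls. Alternatives changed the scaling (as deposited, TMM, median-of-ratios), the DMSO reference, the filter, the pseudocount and the fold. Promoters came from RefSeq (GRCm38.p6). Python 3.11.15, NumPy 2.4.6, pandas 2.3.3, SciPy 1.17.1 and Matplotlib 3.10.9 were used.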

Additional observations from a re-analysis of the deposited data

How the results depend on the processing

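No paired analysis was possible because each high dose is 1 library and the results come from no test. With the mean of DMSO replicates 1 and 2 as reference, 499 genes were higher and 927 lower past 2-fold at both doses, in place of 31 and 44, and with all 3 DMSO libraries 147 and 441. Of the 31 and 44, 17 and 16 were still past 2-fold with either reference. The direction was kept at both doses by only 29 and 35 with DMSO replicates 1 and 2, and by 30 and 42 with all 3. Other settings gave 20 higher with a mean of at least 5 RPM, 97 higher with a pseudocount of 0.1, 287 and 206 at 1.5-fold, 2 and 2 at 3-fold, and 1732 and 1576 where the counting interval alone was used. At 30 µM alone, an alternative chosen after seeing the data, there were 79 and 75. Of the 31, 21 stayed past 2-fold with totals as deposited and 22 with TMM and with median-of-ratios factors (the last chosen after seeing the data), and of the 44, 43, 44 and 44. Totals as deposited moved the median of all genes at 20 µM to -0.10.

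With DMSO replicates 1 and 2 and then with all 3 as reference, the sterol median was -0.34 and -0.12 at 20 µM and -0.10 and 0.0218 at 30 µM, and 0 members passed 1.5-fold with either (14 at 30 µM alone). The NRF2 median was -0.0582 at 20 µM with replicates 1 and 2, and -0.21 and -0.13 at 30 µM, and 1 member passed with all 3, TMM or median-of-ratios factors. The formative median was 0.30 and 0.0633 at 20 µM and 0.30 and 0.0445 at 30 µM (-0.35 with a mean of at least 5 RPM), with 6 members lower at 30 µM alone. Naive members lower were 7 and 7 (2 with a pseudocount of 0.1). Xist was 1.50 and 1.08 at 20 µM and 1.69 and 1.27 at 30 µM (log2). The ratio median was -0.0804 at 20 µM with replicates 1 and 2, and -0.0923 and -0.0800 at 30 µM, with 8 ratios higher at both doses with all 3. In the better expressed X-linked genes 154 ratios were lower and 6 higher. Xi was -0.48 and -0.43 at 20 µM and -0.73 and -0.65 at 30 µM, and Xa 0.16 and 0.16, and 0.0809 and 0.0695. Xa was -0.0031 at 20 µM with totals as deposited, 0.0323 in better expressed genes, and -0.0114 at 30 µM with TMM. With replicates 1 and 2 the mean log2 difference of both doses turned to 0.36 for Lef1, -0.11 for Eomes, -0.20 for Dusp4, -0.0530 for Me1, 0.20 for Ddx58 and -0.0287 for Col4a1. Depth limits low genes most at 20 µM, where 3 read pairs are 0.323 RPM. The cause of these differences was not tested.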
